A study of Drosophila melanogaster with 19 samples.

Results

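Calcium signals in neurons and muscle pass through a short chain of proteins, and 5 genes of that chain were examined here as sources of circular RNA in the fruit fly Drosophila melanogaster. Stim encodes a sensor in the endoplasmic reticulum that reports falling calcium stores to channels of the plasma membrane. Cam encodes calmodulin, the small protein that binds calcium and passes the signal on. CaMKI encodes calcium/calmodulin-dependent protein kinase I, and Pde1c a phosphodiesterase of the family that calmodulin activates. CG34365, now called Stacl, encodes a Stac-like protein, and mammalian STAC proteins bind voltage-gated calcium channels. A circular RNA forms when the end of an exon is spliced back to the start of the same or an earlier exon, and sequencing reads across that join are back-splice reads.

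All junctions labelled with these 5 host genes were taken, 40 of the 5323 listed in the series. CG34365 gave 16, CaMKI 9, Cam 6, Pde1c 6 and Stim 3. The genes had been chosen because junctions of CaMKI, Stim, CG34365 and Cam differed between RNase R and mock libraries and Stim between title numbers 29 and 18, so these contrasts in the same libraries are described below and support nothing.

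Flies carried C4, the "slow polymerase" mutation of RNA polymerase II (called slow), or were wild-type Canton-S (WT), and their heads were used. Sample titles attach 29 or 18 to each genotype, with 2 RNA samples per combination. What these 2 title numbers stand for, the age and sex of the flies and the number of heads per sample are not given in the sources used here. Each of the 8 head RNA samples was depleted of ribosomal RNA and gave 1 library after RNase R, an exonuclease that digests linear RNA from its 3′ end, and 1 mock-treated library. S2 cells, a cultured fly line of embryonic origin, gave 1 RNase R and 1 mock library without replicates, and 1 strand-preserving library came from WT heads, whose treatment the labels do not give.

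Listed back-splice reads numbered 4871 to 20254 in the 8 RNase R head libraries and 800 to 3427 in the 8 mock head libraries. S2 cells had 14874 in the RNase R and 4421 in the mock library, and the stranded library had 2599. Levels are reads per 10000 of these reads, so each is relative to all other back-splice reads of its library, and a junction read marks 1 join whatever the length of the circle. Some groups of libraries below are said not to overlap. The share of all junctions that separate in this way was not counted, so nothing is read from such separations. Of 6 neuronal marker genes (elav, Syt1, nSyb, cac, para and brp), 4 had back-splice reads in heads, where elav and nSyb had none, and all 6 were at 0 in S2 cells. Summed markers of hemocytes and S2 cells (Hml, Pxn, Ppn, srp, Cg25C and vkg) did not tell S2 cells from heads. After RNase R they stood at 31.6 per 10000 in S2 cells, with Hml, Ppn and vkg at 0, and at 11.4 to 32.7 in heads. The C4 mutation leaves no mark in these tables, so genotypes were taken from the labels. In whole heads, fewer cells of a type and less RNA per cell cannot be told apart.

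The 5 hosts differed in how many circles they offered and how far one dominated. Head reads are summed here over the 16 head libraries, without the stranded one. In CaMKI 2513 of 2836 head reads (88.6%) crossed 1 junction, in CG34365 811 of 931 (87.1%) and in Stim 328 of 332 (98.8%). Pde1c spread its 138 reads more evenly, with 34.8% on the leading junction and 29.7% on the next. Cam had 68 reads, of which 29 (42.6%) fell on a junction listed antisense to the gene. Of the 40 junctions, 35 were listed on the strand of their gene and 5 on the other strand, and 25 had fewer than 10 head reads. Only 1 library of the series is described as strand-preserving, so antisense here and below means the listed strand.

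Most of the sense junctions matched annotated exon borders by length. The positions below are in dm3, counted from 1, while the annotation used here is of the later build BDGP6, so only lengths were compared: 29 of the 35 sense junctions had exactly the length of a stretch of their gene bounded by exon borders, upstream start to downstream end. The lengths of the exons inside a circle come from this match and were not read in the libraries. Some lengths matched more than 1 exon combination, and the one with fewest exons, then fewest bases, is given. The CaMKI leader, 4:470550-471135 on the plus strand, spanned 586 bases and matched 3 coding exons of 45, 75 and 139 bases, 259 bases once introns are removed. The next CaMKI junction, 4:470868-471135, spanned 268 bases, shared the downstream end and matched only the 75- and 139-base exons, 214 bases in all. The Stim leader, X:15830832-15831064 on the minus strand, matched a single coding exon of 233 bases. The CG34365 leader, 2R:11340362-11344320 on the plus strand, spanned 3959 bases and matched exons of 152, 125 and 156 bases, 1 of 2 matching combinations.

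Junctions of one gene reused the same splice sites. In Stim all 3 junctions shared the lower coordinate 15830832, their downstream end on the minus strand. The single-exon circle thus lay nested in larger ones of 2 and 3 exons that had 2 head reads each. The 3-exon one had 3 further reads in the stranded WT head library, where the leader had 6. In CG34365, 5 junctions shared the start 11340362, 5 the start 11343940 and 4 the end 11344320. In Pde1c, where the junctions lie on the minus strand of 2L, a 562-base exon was circled alone (28 reads, 11835090-11835651), with a 114-base exon (48 reads, 11833260-11835651), with a 114- and a 291-base exon (41 reads, 11833260-11838773) and with the 291-base exon alone (3 reads, 11835090-11838773). The other 2 Pde1c junctions shared the downstream end 11817353 and had 12 and 6 reads.

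**Figure D1:**
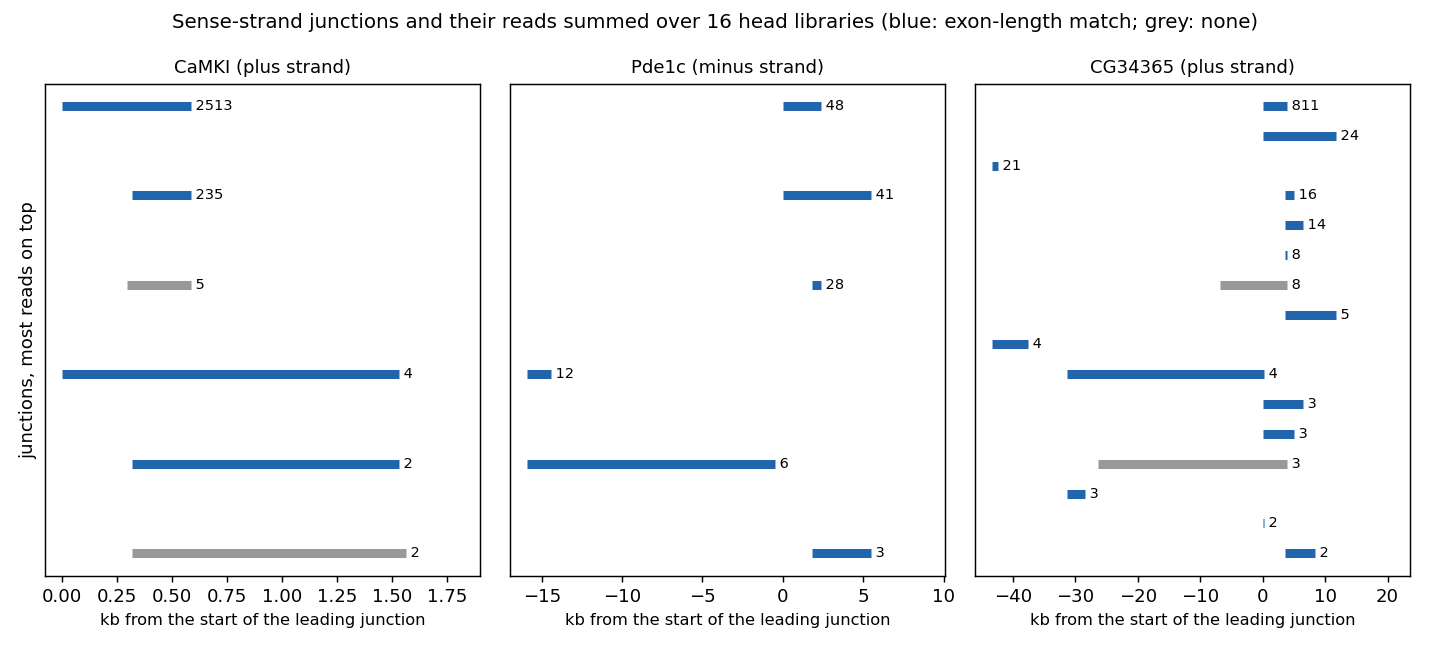
Sense-strand junctions of CaMKI, Pde1c and CG34365, drawn as bars along the distance in kilobases from the start of the host's leading junction, with the most read junction on top and the reads summed over 16 head libraries at the right of each bar; blue bars match an annotated exon start and end by length and grey bars do not. CaMKI and CG34365 have 1 dominant junction (2513 and 811 reads), while 3 Pde1c junctions have 48, 41 and 28 reads. The start on the axis is the lower coordinate, which for Pde1c on the minus strand is the downstream end.

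CaMKI gave the most back-splice reads of the 5. Its 586-base junction had rank 2 to 4 among all junctions of each RNase R head library (median rank 3) and rank 6 to 13 in mock libraries (median rank 8). In RNase R libraries it had 179 and 182 reads per 10000 in slow29, 225 and 271 in slow18, 209 and 308 in WT29, and 283 and 269 in WT18. In mock libraries it had 94.4 and 88.6 in slow29, 75.0 and 56.5 in slow18, 120 and 111 in WT29, and 120 and 160 in WT18. The lowest RNase R library stood above the highest mock library, so the treatments did not overlap.

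The shorter CaMKI junction was far less frequent. It had 25.2 and 21.1 reads per 10000 in slow29, 13.1 and 16.4 in slow18, 29.1 and 23.1 in WT29, and 16.4 and 22.1 in WT18 after RNase R. In mock libraries it rested on 12 reads in all, with levels of 0 to 14.6, and 3 of 8 libraries had none.

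Stim stood higher at title number 29 than at 18 in RNase R libraries, and its few mock reads all lay at 29. After RNase R its 233-base junction had 64.8 and 47.1 reads per 10000 in slow29 and 31.1 and 43.0 in WT29, against 14.7 and 12.3 in slow18 and 13.1 and 9.57 in WT18. All 4 libraries at 29 stood above all 4 at 18. In mock libraries it had 3 and 5 reads in slow29 and 2 and 6 in WT29, and no read in any of the 4 mock libraries at 18.

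CG34365 varied least among RNase R libraries. Its 3959-base junction had 66.6 and 80.0 reads per 10000 in slow29, 62.0 and 63.6 in slow18, 85.9 and 80.5 in WT29, and 70.5 and 73.6 in WT18. In mock libraries it had 0 and 44.3 in slow29, 12.5 and 22.6 in slow18, 52.5 and 55.5 in WT29, and 25.4 and 57.1 in WT18. The lowest RNase R library exceeded the highest mock library. Its second junction, 2R:11340362-11352191, matched 5 exons by length, 1 of 2 matching combinations. It had 1 to 9 reads in 7 of 8 RNase R libraries and 1 read in all mock libraries together.

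Pde1c was sparse after RNase R, at 4.11 to 17.3 reads per 10000 over all its junctions. The leading junction, 11833260-11835651, had 3.60 and 3.10 in slow29, 3.27 and 2.05 in slow18, 6.91 and 3.98 in WT29, and 4.10 and 4.79 in WT18. These levels rest on 1 to 14 reads per library, and the junction was lower in all 4 slow than in all 4 WT libraries. In mock libraries it had 3 reads in replicate 1 of slow29, 1 in replicate 1 of slow18 and 0 in the other 6. The next, 11833260-11838773, had 0 and 4 reads in slow29, 2 and 0 in slow18, 11 and 7 in WT29, and 8 and 5 in WT18 after RNase R, and 4 reads in all mock libraries.

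The leading Cam junction differed from those of the other hosts. It lay at 2R:8161430-8161543, was 114 bases long and matched no exon pair. It was listed on the minus strand, although Cam is on the plus strand. The strand-preserving library had 0 reads of it, so its strand was not observed there. In RNase R libraries it had 1 and 0 reads in slow29, 0 and 0 in slow18, 1 and 1 in WT29, and 1 and 0 in WT18. In mock libraries, which held far fewer reads in all, it had 1 and 4 reads in slow29, 2 and 3 in slow18, 2 and 4 in WT29, and 7 and 2 in WT18. The treatments did not overlap as levels, with 0 to 0.900 per 10000 after RNase R and 5.84 to 44.4 in mock. The sense Cam junction that matched exons of 175 and 243 bases, 2R:8152248-8156940, had 22 reads in RNase R libraries, up to 7 in one library, and 3 in mock libraries.

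**Figure D2:**
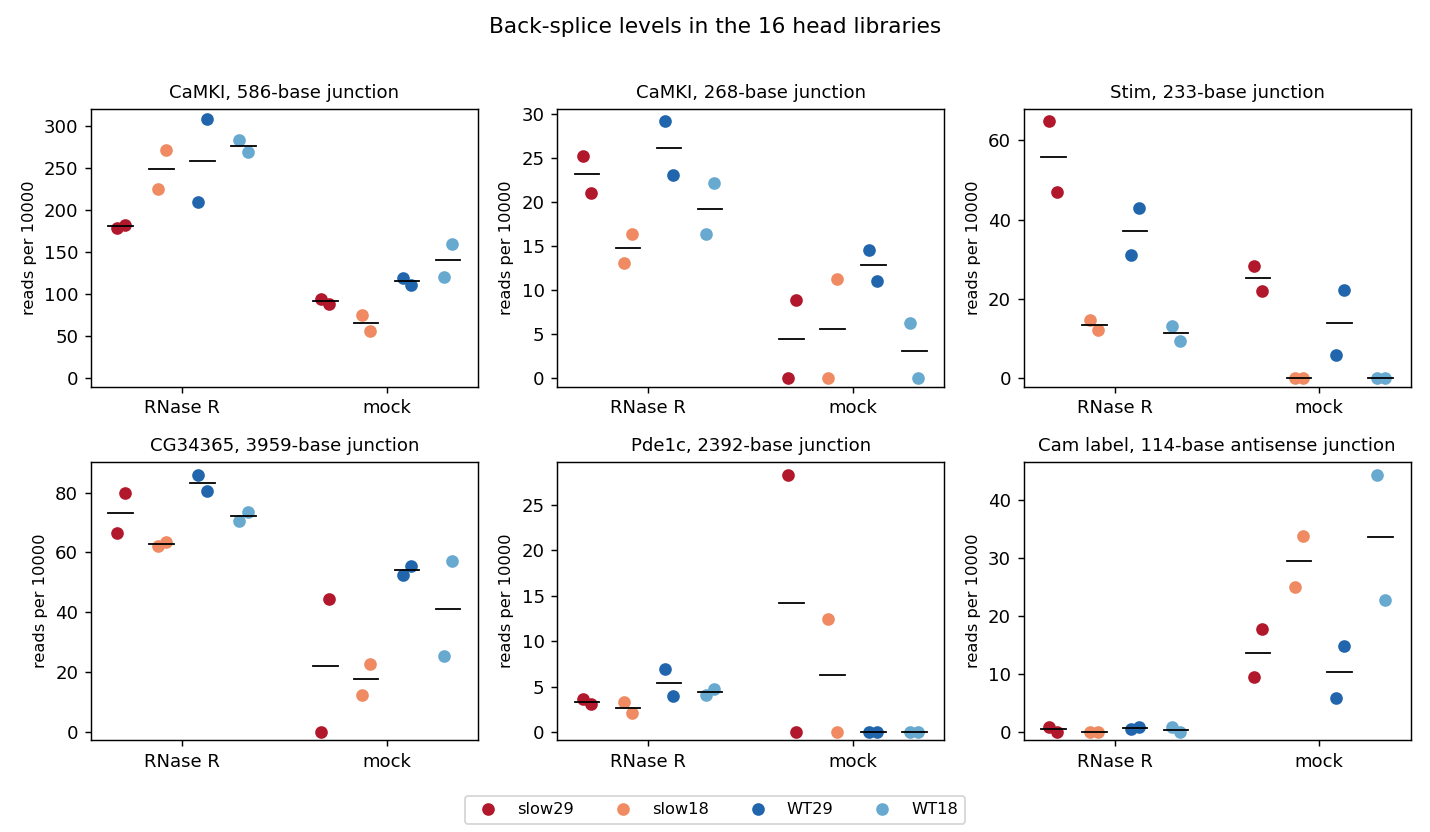
Level of the leading junction of each host and of the shorter CaMKI junction in the 16 head libraries, in reads per 10000 listed back-splice reads (linear axes, scaled per panel); each point is 1 library, each line the mean of 2 and colour the genotype and title number. CaMKI and CG34365 lie higher in all RNase R than in all mock libraries. Stim lies higher at 29 than at 18 after RNase R, and the antisense Cam junction lies near 0 in every RNase R library.

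RNase R libraries were set against mock libraries of the same RNA sample, a contrast that asks which joins survive digestion of linear RNA. The 586-base CaMKI junction averaged 241 ± 48.6 reads per 10000 in RNase R and 103 ± 31.8 in mock libraries (SD, n = 8 each) and was higher in 8 of 8 RNA samples, by 1.68 to 4.80 times. The shorter CaMKI junction averaged 20.8 ± 5.27 and 6.52 ± 5.88, Stim 29.5 ± 20.4 and 9.81 ± 12.2, and CG34365 72.8 ± 8.67 and 33.7 ± 21.6, in RNase R and in mock libraries, each higher in 8 of 8. The log2 fold changes with RNA sample as a block were 1.09 ± 0.17 for CaMKI, 1.25 ± 0.41 for its shorter junction, 1.36 ± 0.36 for Stim and 0.86 ± 0.23 for CG34365 (SE). The antisense Cam junction averaged 0.376 ± 0.419 and 21.7 ± 12.8 (SD, n = 8 each), was lower in 8 of 8 samples, and had a log2 fold change of -5.10 ± 0.56 (SE).

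In this contrast 14 of the 40 junctions were fitted, those listed in both head replicate tables with at least 10 reads, and 5 passed an adjusted p of 0.05, 4 of them higher and 1 lower. Over all 1354 junctions fitted 7.53% passed, 1.92% higher and 5.61% lower. The direction of these calls turned with the scaling: 26 of 102 were higher here, against 249 of 302 with TMM over all tested junctions, 238 of 269 with DESeq2 and 50 of 119 with RLE. The hosts were chosen from this contrast, so nothing is read from their count, and the median log2 fold change of the 14 was 0.85, against 0.38 over all 1354. Not every member leaned the same way: the single-exon Pde1c junction had a log2 fold change of -0.91 ± 0.73 and the sense Cam junction -0.11 ± 0.85, neither past the threshold. With another scaling, over all tested junctions, the median of all junctions moved to 1.12 and the CaMKI value to 1.99, and the sense Cam value turned to 0.62. Stim no longer passed without replicate 1 of WT29 (adjusted p = 0.0546), nor did the shorter CaMKI junction without any one of 7 RNA samples (adjusted p from 0.0517 to 0.0925). Summed photoreceptor marker junctions stood at 20.3 to 32.8 reads per 10000 in RNase R and 183 to 406 in mock libraries, and muscle markers at 12.8 to 76.7 and 102 to 363; their part in these relative levels was not tested.

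**Figure D3:**
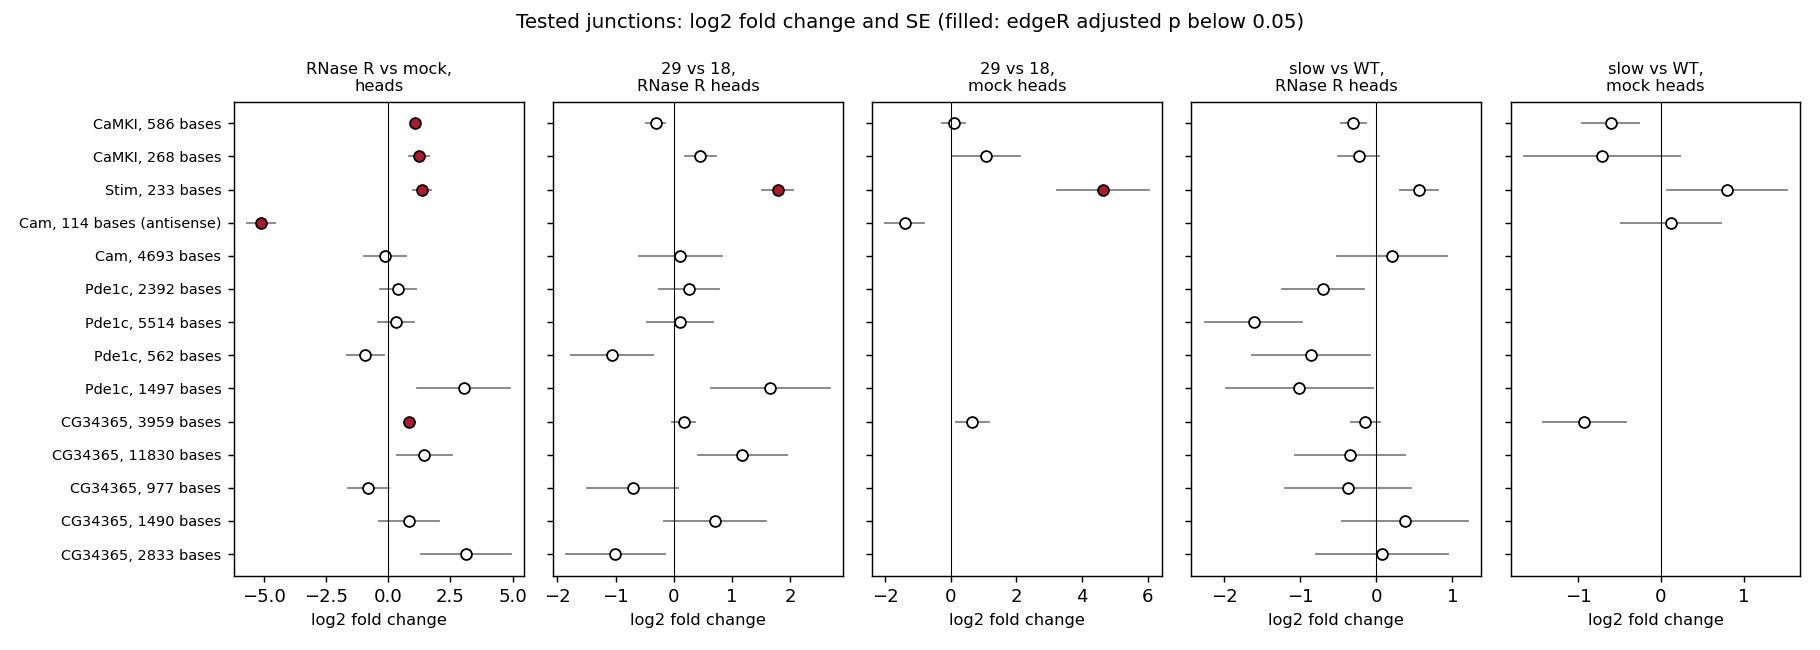
Log2 fold changes (points) with SE (lines) of the 14 fitted junctions in 5 comparisons of head libraries, 1 panel each with its own axis; positive values are higher in the group named first and filled points have an edgeR adjusted p below 0.05. Of the members, 5 are filled for RNase R against mock, Stim alone for 29 against 18, and none for slow against WT.

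Title number 29 was compared with 18 within each treatment. After RNase R the Stim junction averaged 46.5 ± 13.9 reads per 10000 at 29 and 12.4 ± 2.14 at 18 (SD, n = 4 each), a log2 fold change of 1.78 ± 0.26 (SE), and this value is one the hosts were chosen on. Of 13 junctions fitted only Stim passed, against 14.1% of all 1221, of which 5.73% higher and 8.35% lower. Of all calls 70 of 172 were higher at 29, against 63 of 97 with DESeq2, 92 of 168 with RLE and 90 of 164 with TMM over all tested junctions. The 586-base CaMKI junction averaged 219 ± 60.4 and 262 ± 25.4, and the shorter one 24.6 ± 3.44 and 17.0 ± 3.77, at 29 and at 18, with log2 fold changes of -0.31 ± 0.16 and 0.46 ± 0.27 that missed the threshold (edgeR adjusted p = 0.203 and 0.268). Without replicate 2 of WT29 the CaMKI value was -0.50 and passed (adjusted p = 0.0135).

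The same RNA samples gave the mock libraries, which the choice of hosts did not use for Stim and title number. There the Stim junction had 16 reads among 9447 at 29 and 0 among 4138 at 18. Against a floor of 3 reads over the group at 18 this was 2.34-fold higher, with the 16 reads taken as exact. In single mock libraries at 18, 3 reads would be 19.0 to 37.5 per 10000, against Stim levels of 5.84 to 28.3 at 29. These ranges overlap, so the order library by library is not shown. The edgeR adjusted p was 0.0248, and Stim was the only one of 5 fitted members to pass, against 4.78% of 230 junctions, 2.17% higher and 2.61% lower. All 16 reads lay at 29, so Stim met the minimum of 10 reads only through the group where it was high. This p-value is therefore a description and supports nothing. The call did not hold: leaving out any one RNA sample gave an adjusted p of 0.055 to 0.132, and DESeq2 gave an adjusted p of 0.452. Since the libraries share their RNA with the RNase R ones, they are no independent sample of title number. The antisense Cam junction leaned the other way, with 11.9 ± 5.33 reads per 10000 at 29 and 31.5 ± 9.82 at 18 (SD, n = 4 each), and did not pass (log2 fold change -1.40 ± 0.59, edgeR adjusted p = 0.133). Its 4 libraries at 29 did not overlap the 4 at 18, on 25 reads in all.

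Slow polymerase heads were compared with WT heads, the genotype comparison of the study. After RNase R none of 13 fitted junctions passed, against 2.95% of all 1221 (0.901% higher and 2.05% lower). Of all calls 11 of 36 were higher in slow, against 17 of 36 with RLE. DESeq2 called no member either, and 2 members had an unadjusted p below 0.05 with edgeR. These were the Pde1c junction 11833260-11838773, at 1.44 ± 1.69 reads per 10000 in slow and 5.14 ± 1.52 in WT heads (log2 fold change -1.61 ± 0.64, edgeR adjusted p = 0.193), and Stim, at 34.7 ± 25.6 in slow and 24.2 ± 15.7 in WT heads (0.56 ± 0.25, adjusted p = 0.254). The 586-base CaMKI junction had 214 ± 43.4 in slow and 267 ± 41.8 in WT heads (-0.30 ± 0.16, adjusted p = 0.386), and CG34365 68.1 ± 8.15 and 77.6 ± 6.94 (-0.14 ± 0.19, adjusted p = 0.816). The leading Pde1c junction had 3.00 ± 0.67 in slow and 4.95 ± 1.36 in WT heads (-0.70 ± 0.54, edgeR adjusted p = 0.638).

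In mock libraries none of 5 fitted members passed, and 0.00% of all 230 did, with 16 of the 230 below an unadjusted p of 0.05 and none called by DESeq2. CaMKI was lower in all 4 slow libraries, at 78.6 ± 16.9 reads per 10000, than in the 4 WT libraries, at 128 ± 21.8 (SD, n = 4 each), a log2 fold change of -0.61 ± 0.34 that missed the threshold (edgeR adjusted p = 0.617). CG34365 had 19.9 ± 18.7 in slow and 47.6 ± 14.9 in WT mock libraries (-0.92 ± 0.50, adjusted p = 0.617). These values rest on 41 and 104 CaMKI reads and 13 and 42 CG34365 reads in slow and WT.

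Whether the response to treatment or title number depended on genotype was tested with interaction terms. No member passed: 0.00% of 1221 junctions did for genotype by title number after RNase R (50 below an unadjusted p of 0.05) and 0.00% of 1354 for genotype by treatment (22 below it), and DESeq2 called none in either. For Stim the title-number difference was larger in slow than in WT by 0.33 ± 0.56 on the log2 scale (adjusted p = 0.976). For CaMKI the treatment difference was larger in slow by 0.30 ± 0.36 (adjusted p = 1). The member with the lowest unadjusted p was the leading Pde1c junction in the treatment interaction (edgeR adjusted p = 1), which rests on the 4 mock reads named above.

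The choice between the 2 CaMKI circles can be followed within each library, where depth cancels. The 268-base junction leaves out the 45-base exon. It made up 8.61% of the 2591 reads of both junctions in RNase R head libraries (95% exact binomial interval 7.56 to 9.75) and 7.64% of 157 in mock head libraries (4.01 to 13.0). These 2 intervals pool reads over libraries and leave out the spread between libraries, whose shares ran from 5.46% to 12.3% after RNase R. By library after RNase R the share was 12.3% and 10.4% in slow29, 5.48% and 5.71% in slow18, 12.2% and 6.99% in WT29, and 5.46% and 7.60% in WT18. It averaged 8.48% ± 3.43 in slow and 8.07% ± 2.91 in WT libraries (SD, n = 4 each), a difference of 0.42 percentage points (exact two-sided permutation test, p = 0.8571, smallest possible 0.0286). This test did not adjust for title number, so its spread includes any difference by title number. By title number it averaged 10.5% ± 2.49 at 29 and 6.06% ± 1.03 at 18 (SD, n = 4 each), with replicate 2 of WT29 below replicate 2 of WT18; this contrast is among those the hosts were chosen on and is given without a test.

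**Figure D4:**
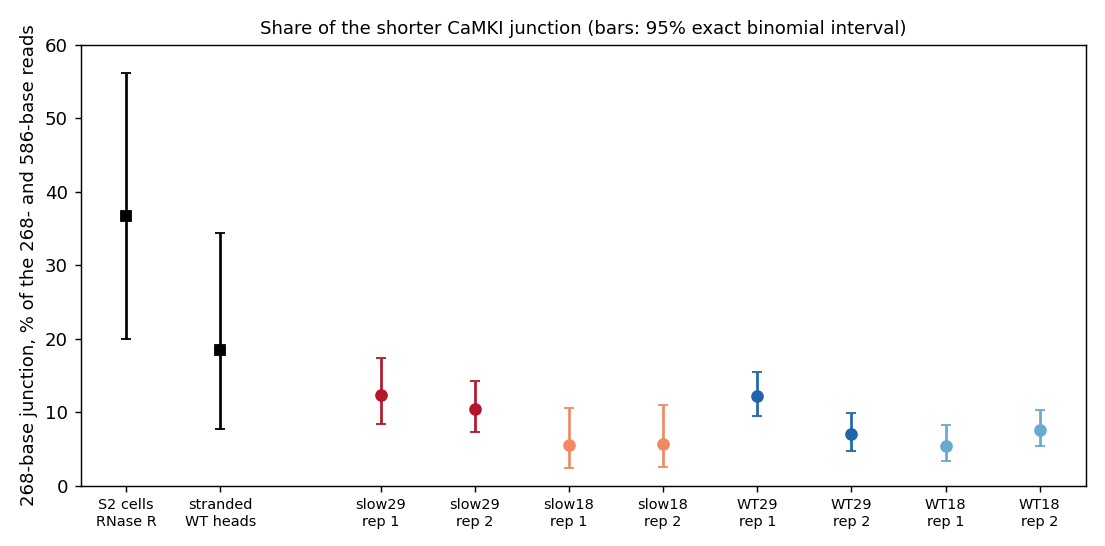
Share of the 268-base CaMKI junction among reads of the 268- and 586-base junctions, in percent, for S2 cells after RNase R, the stranded WT head library and the 8 RNase R head libraries; points are single libraries and bars their 95% exact binomial intervals. The head RNase R libraries lie between 5.46% and 12.3%, S2 cells at 36.7% and the stranded library at 18.4%.

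In S2 cells 5 of the 40 junctions were listed, 2 of CaMKI, 1 of Stim and 2 antisense to Cam. After RNase R the Stim junction had 22 reads in S2 cells, 14.8 per 10000 (95% exact binomial interval 9.27 to 22.4), and in the mock library 1 read. The head RNase R libraries held 9.57 to 64.8. The 586-base CaMKI junction had 19 reads in the S2 RNase R library, 12.8 per 10000 (7.69 to 19.9), against 179 to 308 in head RNase R libraries, and the 268-base junction had 11. The shorter junction was therefore 36.7% of 30 CaMKI reads in S2 cells (95% exact binomial interval 19.9 to 56.1). The lower bound lay above the share in each of the 8 RNase R head libraries. The stranded head library, at 18.4% (7.74 to 34.3), had an interval that overlapped the S2 interval. CG34365 had 0 reads in both S2 libraries, and 3 reads, taken as the most that a count of 0 allows, would be 2.02 per 10000 after RNase R and 6.79 in mock. No Pde1c junction was listed in S2 cells. The antisense Cam junction had 0 reads after RNase R and 8 in the mock library (18.1 per 10000, 7.82 to 35.6), and a further antisense junction, 2R:8161686-8161814, was listed in S2 cells alone with 2 mock reads. With 1 library per treatment S2 cells carry no replicate check, and no test was made.

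The stranded WT library listed 7 of the 40 junctions. The 586-base CaMKI junction had 31 reads, 119 per 10000 (95% exact binomial interval 81.2 to 169). The leading CG34365 junction had 11 (42.3, 21.1 to 75.6) and the leading Stim junction 6 (23.1, 8.48 to 50.2). The Stim junction matching 3 exons had 3 (11.5, 2.38 to 33.7). The Pde1c junction 11833260-11838773 had 2. The antisense Cam junction had 0 reads, where 3 reads would be 11.5 per 10000. The shorter CaMKI junction had 7, a share of 18.4% (7.74 to 34.3).

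CaMKI also had reads listed on the opposite strand. A minus-strand junction, 4:470544-471129, had the same 586-base span as the leader, shifted by 6 bases, and a second, 4:470862-471129, mirrored the 268-base junction with the same shift. The longer mirror had 67 reads in the replicate 2 head libraries, 4.80% of the 1397 reads of the pair, and 0 in the replicate 1 libraries, where the plus-strand junction had 1183. In the stranded library it had 3 of 34 reads (8.82%, exact binomial interval 1.86 to 23.7). No junction of any host had such a mirror in the replicate 1 table, and the 2 CaMKI pairs were the only ones in the replicate 2 table. The S2 table held 1 such pair, of another host, and the table of the stranded library held 1 of CaMKI. The cause was not tested.

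Other junctions varied across the 8 RNase R head libraries in the same way as the 2 leaders. Ranked by Pearson's r of log2 levels among 151 junctions of other hosts, those nearest to Stim were in Parp (r = 0.941), CG11155 (0.933) and Gprk1 (0.926). Their levels averaged 29.4 reads per 10000 at 29 and 10.5 at 18 for Parp, 54.9 and 27.2 for CG11155, and 29.3 and 13.2 for Gprk1, an order that follows from picking them by likeness to Stim. Nearest to CaMKI, among 150, were Pvf3 (0.872), CG34377 (0.859) and heph (0.858). These are descriptions over 8 libraries that share their totals.

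A list of 53 further calcium genes, channels, pumps, sensors and effectors, was followed alongside. Of these, 29 hosted 174 head junctions. In RNase R against mock, 54 of these junctions were fitted and 5 passed (9.26%, against 7.53% of all), all lower: 2 short junctions of the phototransduction channel gene trp (-6.07 ± 0.57 and -5.15 ± 0.30), 1 labelled Rya-r44F, the ryanodine receptor gene, with its ends at 2R:3283104-5074564 (-4.57 ± 0.78) and 2 of Caps, a regulator of vesicle release (-1.51 ± 0.43 and -0.99 ± 0.26; log2 fold change ± SE). The ends of the Rya-r44F junction lie more than 100000 bases apart, so the alternative fit without such junctions left it out. The 54 fitted junctions had a median log2 fold change of 0.17, against 0.38 over all junctions. In 29 against 18 after RNase R, 47 were fitted, 7 were higher and 3 lower (21.3% passed, against 14.1% of all); Caps gave 5 of the 7. The 5 with the largest changes were 3 Caps junctions (4.47 ± 1.44, 2.70 ± 0.47 and 2.15 ± 0.54), 1 of the potassium channel gene SK (-1.95 ± 0.69) and 1 of Caki, a scaffold kinase gene (1.84 ± 0.67). In slow against WT after RNase R, 1 of 47 passed (2.13%, against 2.95% of all), a junction of the calcium channel gene cac at X:11842661-11843287 (-4.90 ± 1.35, adjusted p = 0.0125). In mock libraries 0 of 13 passed for genotype and 0 of 13 for title number.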

How the data were processed

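Per the labels' protocol, head and S2 RNA was depleted of ribosomal RNA with Ribominus, treated with RNase R or mock treated, and made into TruSeq libraries. The submitters' processing notes name the tools CASAVA and Bowtie and the genome build dm3; versions, junction caller and annotation are not given in the sources used here. The deposited values are unnormalised read counts of back-splice junctions in 4 tables, stored in 3 of them as 1 comma-separated list per row, and no table lists a junction with fewer than 2 reads. Sequencing depth is not part of the tables. No molecular identifiers are mentioned for these amplified libraries, and intervals and floors cover only the error of counting.

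The members and lists were chosen with earlier results of these data known. Junctions listed in both head replicate tables, with 10 or more reads in the libraries of a fit, spread over 2 or more, were tested with edgeR 4.0.16 (R 4.3.3) by the quasi-likelihood F-test, two-sided, with Benjamini-Hochberg adjustment over all fitted junctions and a threshold of 0.05. TMM factors were taken over the 100 most abundant tested junctions. The SE of a log2 fold change is its size divided by the square root of F, so it restates the test. RNA sample was a block for treatment; the other factor of genotype and title number was a covariate elsewhere. Replicates are not stated to come from separate flies; the spread behind each p-value may therefore be technical. Per host, the 2 junctions with most head reads were given by library, with any other member past the threshold. The fits were tested on simulated data. Alternatives were other scalings, DESeq2 1.42.0, other read minimums, either replicate table, removal of junctions over 100000 bases, replicate blocks and leaving out each RNA sample.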

Additional observations from a re-analysis of the deposited data

Results flagged for a closer look

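In 61 groups of 4 or 8 libraries of the leading junctions, 6 had a library far from the rest by Dixon's test. The groups share libraries and many counts are very low, so the test's nominal rate of 1 in 20 does not apply. No excess is read from the 6. The leading Pde1c junction, 11833260-11835651, stood at 28.3 reads per 10000 in mock replicate 1 of slow29, the highest of 8 mock libraries and of the 4 at 29. It stood at 12.5 in mock replicate 1 of slow18, the highest of the 4 mock libraries at 18; these are 3 reads and 1 read. The antisense Cam junction stood at 0.900 in RNase R replicate 1 of slow29, the highest of 4 slow libraries, and at 0.819 in RNase R replicate 1 of WT18, the highest of 4 at 18; each is 1 read where the other 3 had none. The leading CG34365 junction stood at 25.4 in mock replicate 1 of WT18, the lowest of 4 WT mock libraries.

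The minus-strand mirror of the leading CaMKI junction, which was listed in 1 head replicate table and entered none of the main fits, had 67 reads in the replicate 2 head libraries and none in replicate 1.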

How the results depend on the processing

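Log2 fold changes of members were refitted 1247 times over 77 results. No value past the threshold changed sign, 19 calls were lost and 1 gained; 76 values that missed the threshold changed sign. The lost calls were Stim in mock libraries by title number (adjusted p = 0.158 without a read minimum, 0.452 with DESeq2), Stim in RNase R against mock (0.0546 without replicate 1 of WT29) and the shorter CaMKI junction in RNase R against mock (0.051 without a read minimum, and 7 of the 8 fits that left out a sample).

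Counts of all junctions called moved by more than 1.5 times as follows. RNase R against mock gave 102 in the main fit, 302 with TMM over all junctions, 269 with DESeq2, 66 at 50 reads or more, and 64 to 90 without one RNA sample, lowest without replicate 1 of WT29; members called were 3 to 5. Title number after RNase R gave 172, then 97 with DESeq2, 114 at 50 reads or more and 104 to 184 without one sample, with members at 1 to 2. In mock libraries title number gave 11, then 1 with DESeq2, 1 without a minimum, 4 at 50 reads or more and 2 to 10 without one sample; members were 0 in each of these. Genotype after RNase R gave 36, then 16 with DESeq2 and 18 to 40 without one sample; in mock it gave 0, then 2 at 50 reads or more and 0 to 1 without one. Genotype by title number gave 0 to 1 without one sample. The cause was not tested. The CaMKI share difference ranged from -0.87 to 1.80 points without one sample, chosen after the data were seen, and was 0.35 with mirror reads added.

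The log2 difference between replicates 1 and 2 was taken within each combination of genotype and title number. Between combinations these differences correlated from -0.003 to 0.203 after RNase R and -0.227 to 0.250 in mock libraries. The replicate numbers were therefore not taken to pair samples. With a replicate block 165 and 10 junctions were called by title number, after RNase R and in mock, and 39 by genotype after RNase R; without the RNA sample as a block 106 were called for treatment. No member's call changed under these blocks. Mock depth limits the members: 3 reads, the limit taken for a count of 0, are 8.75 to 37.5 reads per 10000 there, against 1.48 to 6.16 after RNase R.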
